A study of Paeonia lactiflora with 9 samples.

Results

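In developing seeds of the herbaceous peony Paeonia lactiflora ‘Hangshao’, 4 unigenes were annotated to the reduction and dehydration steps of fatty acid elongation and are described here. CL15103.Contig1_All encodes a 3-ketoacyl-CoA reductase (KCR), CL6818.Contig4_All and CL6953.Contig3_All a 3-hydroxyacyl-CoA dehydratase (HCD), and CL3941.Contig3_All an enoyl-CoA reductase (ECR), as the study annotated them. A unigene is an assembled transcript, and contigs that share a CL number belong to 1 cluster of similar transcripts. The 4 unigenes were taken by their identifiers from 125685 unigenes in the deposited table. The study had listed them because their level differed more than 2-fold between stages of these same libraries, so their differences between stages, and the intervals and calls given with them, describe these libraries and are no test of the contigs. The clusters of the 4 unigenes held 2, 7, 3 and 3 contigs for CL15103, CL6818, CL6953 and CL3941, respectively.

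In all, 9 libraries of seeds were sequenced, 3 each from seeds of 30, 60 and 90 days after flowering (DAF), all of 1 cultivar, with no treatment or other genotype named in the labels. The seeds came from the same plant by the study's methods, so the spread between the 3 libraries of a stage need not cover the spread between plants. Levels were given as FPKM (mapped fragments relative to transcript length and to library size), which is per length and can be compared between unigenes. The total FPKM of a library was 651086 to 700670. The depth relative to 30 DAF replicate 1, estimated from the ratios of low values, was 0.871 to 1.07. The oleosin and caleosin unigenes, which encode proteins of the oil bodies of seeds, summed to 1193 to 1312 FPKM in the 30 DAF libraries, 5576 to 9399 in those of 60 DAF and 9494 to 14355 in those of 90 DAF. All 10 were above 0 in every library of 30 and 60 DAF and 9 in every library of 90 DAF. In bulk seed RNA, fewer cells of a type and less RNA per cell cannot be told apart.

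The elongase of the endoplasmic reticulum lengthens acyl-CoA chains in cycles, each adding a short unit from malonyl-CoA. 3-Ketoacyl-CoA synthase (KCS) condenses the chain with this unit, KCR reduces the resulting ketone, HCD removes water from the hydroxyl form, and ECR reduces the remaining double bond. In Arabidopsis, KCS is encoded by a large family that sets chain length, while the other enzymes act on chains of many lengths; the known KCR, HCD and ECR genes there are KCR1, PAS2 and CER10. The very-long-chain products go into waxes, suberin, sphingolipids and, in some seeds, the storage oil.

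The KCR contig was the only 1 of the 4 whose primers for quantitative PCR were found in the study's material, and they are shown as the sequence by which the study followed this contig. Whether they tell it from the other contig of its cluster was not tested. They are written 5′ to 3′ in lower case, with 20 and 21 bases and a GC content of 40% and 42.9%.
CL15103.Contig1_All forward: tgaagtggatgagaagttgt
CL15103.Contig1_All reverse: ggtcggaaggaataataatgg

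Among the listed unigenes, KCR had the highest summed transcript level of the 3 enzymes at 30 and 60 DAF, and a far lower one at 90 DAF. CL15103.Contig1_All stood at 471, 312 and 394 FPKM in the 3 libraries of 30 DAF, at 822, 923 and 630 FPKM at 60 DAF, and at 17.1, 15.9 and 18.4 FPKM at 90 DAF. No library of 1 stage overlapped those of another stage. The mean level was 392 ± 79.7 FPKM (SD, n = 3) at 30 DAF, then 792 ± 149 and 17.1 ± 1.25 at 60 and 90 DAF, which was 2.02-fold higher at 60 than at 30 DAF and 46.2-fold lower at 90 than at 60 DAF. Among all unigenes of a library it ranked 125th to 210th at 30 DAF, 79th to 98th at 60 DAF and 5324th to 5705th at 90 DAF. The 3 libraries of 90 DAF lay closer together than at the other stages, with a coefficient of variation of 7.30% against 20.3% at 30 DAF and 18.8% at 60 DAF.

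On the log2(FPKM + 0.5) scale, with 1 term per stage, the change of CL15103.Contig1_All was 1.02 (SE 0.193) in Group I (60 against 30 DAF), -5.48 in Group II (90 against 60 DAF) and -4.46 in Group III (90 against 30 DAF). Between the same stages the median of the 55192 unigenes tested moved by -0.31, 0.36 and 0.06, and relative to this median the changes of the KCR contig were 1.32, -5.83 and -4.52. The Group I change lay near the 2-fold limit for a differentially expressed gene (DEG, also adjusted p of at most 0.05). It was 0.86 without 30 DAF replicate 2, 0.98 without 60 DAF replicate 1, 0.90 without 60 DAF replicate 2 and 0.79 after quantile normalization, in each case below that limit.

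CL15103.Contig1_All held nearly the whole of its cluster, 99.4% ± 0.294 (SD, n = 3) of the FPKM at 30 DAF, then 99.7% ± 0.0477 and 99.2% ± 0.475 at 60 and 90 DAF. The second contig, CL15103.Contig2_All, also listed as KCR, had 1.58, 2.87 and 2.07 FPKM in the 30 DAF libraries, 3.07, 3.35 and 1.80 in those of 60 DAF and 0.06, 0.11 and 0.24 in those of 90 DAF. Its 90 DAF libraries lay below all others, as they did for the main contig, while 30 and 60 DAF overlapped. Reads that fit both contigs can be divided between them by the authors' counting, so the low contig is uncertain. The 2 KCR unigenes outside the cluster were low at every stage. Unigene7734_All had 2.23 ± 0.254 FPKM at 30 DAF, then 0.967 ± 0.396 and 0.247 ± 0.0751 at 60 and 90 DAF, and Unigene17156_All had 0.883 ± 0.121, 0.230 ± 0.199 and 0.0200 ± 0.0346 FPKM (SD, n = 3 each). Neither was higher at 60 than at 30 DAF, and in both the libraries of 60 DAF lay below those of 30 DAF.

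**Figure D1:**
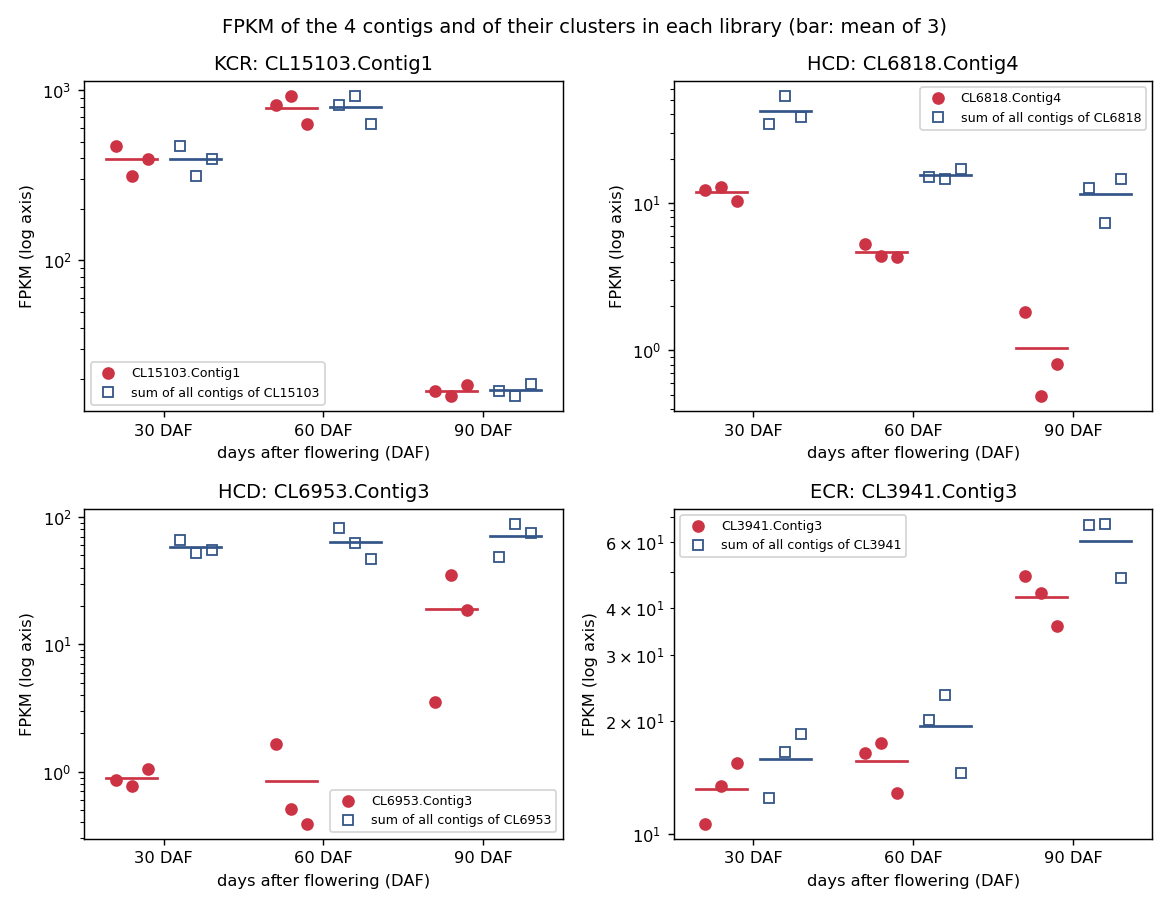
FPKM on a log axis in each library at 30, 60 and 90 DAF, with 1 panel per contig; filled circles are the contig, open squares the sum of all contigs of its cluster, and bars the mean of 3 libraries. The circles and squares coincide for KCR, while for CL6953.Contig3 the circles reach 34.8 FPKM at 90 DAF and the squares overlap between the stages.

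The HCD contigs CL6818.Contig4_All and CL6953.Contig3_All went in opposite directions. CL6818.Contig4_All had 12.3, 12.95 and 10.4 FPKM in the 30 DAF libraries, 5.24, 4.37 and 4.31 in those of 60 DAF and 1.83, 0.490 and 0.810 in those of 90 DAF. Its stages did not overlap, and each later stage was the lower. The mean was 2.56-fold lower at 60 than at 30 DAF and 11.4-fold lower at 90 than at 30 DAF. The log2 change was -1.27 (SE 0.299) in Group I, then -1.83 and -3.09 in Groups II and III, and relative to the median of all tested unigenes it was -0.96, -2.18 and -3.16. In Group I the change was -0.88 under median-of-ratios scaling, which divides each library by its typical ratio to the average library and brings the median change of all unigenes to -0.03, -0.04 and -0.07, and -0.92 after quantile normalization, so that it no longer reached 2-fold.

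CL6953.Contig3_All had 0.860, 0.770 and 1.05 FPKM in the 30 DAF libraries, 1.64, 0.510 and 0.390 in those of 60 DAF and 3.52, 34.8 and 18.6 in those of 90 DAF. The libraries of 90 DAF lay above all others, but differed 9.88-fold among themselves, and replicate 1 was the low one. The coefficient of variation at 90 DAF was 82.4%, against a median of 34.5% over the 35664 unigenes with a mean of at least 1 FPKM at that stage. The log2 change was -0.16 (SE 0.712) in Group I, then 3.49 and 3.33 in Groups II and III. Without 90 DAF replicate 1 the change was 4.38 in Group II and 4.23 in Group III, and without 90 DAF replicate 2 it was 2.82 and 2.66. The sign of the Group I change is not settled, since it was 0.08 under median-of-ratios scaling. The ratio of CL6953.Contig3_All to CL6818.Contig4_All was 0.0595 to 0.101 at 30 DAF, 0.0905 to 0.313 at 60 DAF, and 1.92, 71.0 and 23.0 in the libraries of 90 DAF, so the order of the HCD contigs was the other way round in each of the 3 late libraries.

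The other contigs of the HCD clusters followed these patterns only in part. In cluster CL6953 the contigs not listed by the study made up most of the level. CL6953.Contig1_All had 47.4, 33.2 and 36.9 FPKM in the 30 DAF libraries, 48.7, 39.0 and 28.8 in those of 60 DAF and 33.2, 42.6 and 27.5 in those of 90 DAF. CL6953.Contig2_All had 18.1, 18.4 and 17.5 FPKM in the 30 DAF libraries, 31.2, 22.4 and 17.5 in those of 60 DAF and 12.1, 10.96 and 29.1 in those of 90 DAF. All stages overlapped in both contigs. In the limma fit over all tested unigenes, the Group II change of CL6953.Contig1_All was -0.16 (95% interval -0.71 to 0.39, Benjamini-Hochberg adjusted p = 0.644) and that of CL6953.Contig2_All was -0.54 (-1.35 to 0.27, adjusted p = 0.272).

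The share of CL6953.Contig3_All in its cluster was 1.55% ± 0.309 (SD, n = 3) at 30 DAF and 1.22% ± 0.682 at 60 DAF, and it was 7.22%, 39.4% and 24.7% in the 3 libraries of 90 DAF. The sum over the cluster was 66.4, 52.3 and 55.4 FPKM in the 30 DAF libraries, 81.6, 61.9 and 46.7 in those of 60 DAF and 48.8, 88.4 and 75.2 in those of 90 DAF. These sums overlapped between all stages. Their log2 change was 0.10 (95% interval -0.48 to 0.67) in Group I, then 0.15 (-0.42 to 0.73) and 0.25 (-0.33 to 0.82) in Groups II and III, and the sign in Group II turned to -0.48 under median-of-ratios scaling. Whether reads were divided between these contigs was not tested.

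In cluster CL6818 the sum was 34.4, 53.3 and 38.6 FPKM in the 30 DAF libraries, 15.2, 14.5 and 17.1 in those of 60 DAF and 12.7, 7.33 and 14.6 in those of 90 DAF. The 30 DAF libraries lay above all others, and the 60 and 90 DAF libraries overlapped. The log2 change of the sum was -1.38 (SE 0.253) in Group I, then -0.47 (95% interval -1.04 to 0.11) and -1.85 in Groups II and III. The sum without the listed contig was 30.2 ± 9.32 FPKM at 30 DAF, 10.9 ± 1.59 FPKM at 60 DAF and 10.5 ± 3.51 FPKM at 90 DAF (SD, n = 3). It was 2.76-fold lower at 60 than at 30 DAF, close to the 2.56-fold of CL6818.Contig4_All, while the libraries of 60 and 90 DAF overlapped. The share of CL6818.Contig4_All in the cluster was 29.0% ± 6.05 at 30 DAF, then 30.0% ± 4.67 and 8.87% ± 4.81 at 60 and 90 DAF. Under median-of-ratios scaling the Group II change of the sum was -1.08 and passed the DEG limits.

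Of the 6 other contigs of CL6818, 5 passed the filter on low values, and none of the 5 was a DEG in Group I or Group II in the limma fit, with 2 and 1 of them below an unadjusted p of 0.05. In Group III CL6818.Contig2_All fell by 2.19 on the log2 scale (limma, adjusted p = 0.0188) and CL6818.Contig3_All fell by 1.71 (adjusted p = 0.0411). For CL6818.Contig8_All the change was -1.67 (adjusted p = 0.0554), for CL6818.Contig7_All -1.21 (adjusted p = 0.150) and for CL6818.Contig6_All -0.27 (adjusted p = 0.596). CL6818.Contig6_All took 7.10% ± 1.32 of the cluster at 30 DAF and 22.7% ± 11.5 at 90 DAF. CL6818.Contig1_All was listed at 0 in 7 of the 9 libraries and at 1.41 and 1.07 FPKM in the other two, and did not pass the filter.

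**Figure D2:**
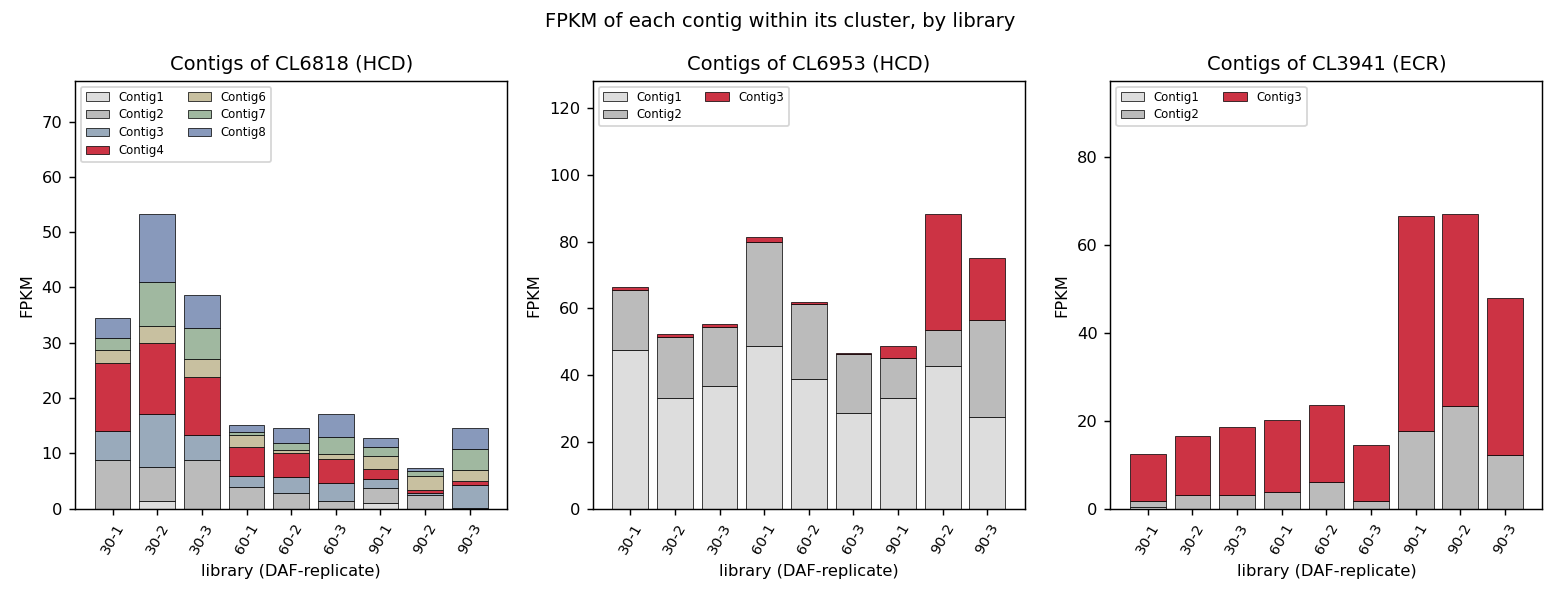
FPKM of every contig of clusters CL6818, CL6953 and CL3941 in each library, stacked, with the listed contig CL6818.Contig4, CL6953.Contig3 or CL3941.Contig3 in red. The red part of CL6953 is under 2 FPKM in every library of 30 and 60 DAF and reaches 34.8 FPKM at 90 DAF on top of contigs whose levels overlap between stages, while in CL3941 the red and grey parts are both highest at 90 DAF.

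The third HCD unigene, Unigene33616_All, had 3.02, 4.63 and 7.18 FPKM in the 30 DAF libraries, 5.23, 4.36 and 2.54 in those of 60 DAF and 2.36, 0.750 and 0.850 in those of 90 DAF. Its libraries of 90 DAF lay below all others, in the direction of CL6818.Contig4_All and opposite to CL6953.Contig3_All. Summed over the 3 listed HCD unigenes, the level was 17.7 ± 1.32 FPKM (SD, n = 3) at 30 DAF, then 9.53 ± 2.45 and 21.3 ± 14.2 at 60 and 90 DAF. Without 90 DAF replicate 2 the mean at 90 DAF was 14.0 FPKM, below that of 30 DAF. Summed over all 11 unigenes, that is every contig of both clusters and Unigene33616_All, a sum chosen after the data had been seen, it was 105 ± 4.70, 83.0 ± 17.9 and 83.7 ± 17.4 FPKM. In that sum the libraries of 60 DAF overlapped both other stages and those of 90 DAF lay below those of 30 DAF.

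ECR transcripts of cluster CL3941 were highest at 90 DAF. CL3941.Contig3_All had 10.7, 13.5 and 15.5 FPKM in the 30 DAF libraries, 16.5, 17.5 and 12.9 in those of 60 DAF and 48.8, 43.8 and 35.8 in those of 90 DAF. The 30 and 60 DAF libraries overlapped, and those of 90 DAF lay above all of them. The mean was 2.74-fold higher at 90 than at 60 DAF and 3.24-fold higher at 90 than at 30 DAF. The log2 change was 0.24 (SE 0.196) in Group I, then 1.42 (SE 0.196) and 1.66 in Groups II and III, or 0.54, 1.07 and 1.60 relative to the median of all tested unigenes. Under median-of-ratios scaling the Group II change was 0.81, below the 2-fold limit.

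The second ECR contig of the cluster, CL3941.Contig2_All, moved the same way, with 1.55, 3.07 and 3.01 FPKM in the 30 DAF libraries, 3.72, 5.95 and 1.70 in those of 60 DAF and 17.7, 23.3 and 12.2 in those of 90 DAF. Its share of the cluster was 15.7% ± 3.10 (SD, n = 3) at 30 DAF, then 18.5% ± 6.84 and 28.9% ± 5.06 at 60 and 90 DAF, and that of CL3941.Contig3_All was 83.5% ± 1.96, 81.5% ± 6.84 and 71.1% ± 5.06. The sum over CL3941 was 15.9 ± 3.08, 19.4 ± 4.50 and 60.5 ± 10.9 FPKM, with log2 changes of 0.28, 1.63 and 1.90 in Groups I, II and III. CL3941.Contig1_All was listed at 0.280 FPKM in 1 library and at 0 in the others.

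The third ECR unigene, Unigene30380_All, ran against the cluster. It had 36.2, 37.2 and 29.6 FPKM in the 30 DAF libraries, 17.0, 14.8 and 16.3 in those of 60 DAF and 6.67, 5.30 and 9.30 in those of 90 DAF. Its stages did not overlap, and each later one was lower, with log2 changes of -1.07, -1.15 and -2.23 in Groups I, II and III. The ratio of the CL3941 sum to Unigene30380_All was 0.345 to 0.626 in the 30 DAF libraries, 0.897 to 1.59 in those of 60 DAF and 5.16 to 12.7 in those of 90 DAF, with no overlap between stages. A ratio within a library does not depend on how the library was scaled. The 3 listed ECR unigenes together summed to 50.1 ± 3.15, 35.4 ± 4.01 and 67.6 ± 8.96 FPKM (SD, n = 3), with no overlap between stages as deposited. After median-of-ratios scaling the sums were 45.8 ± 3.08, 43.3 ± 5.35 and 53.4 ± 8.08 FPKM, and all stages overlapped.

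Summed over the unigenes listed for each step, the levels stood in different proportions at each stage. The study listed these unigenes for changes between the stages, so unigenes that did not change are missing from the sums. For HCD at 30 DAF the listed unigenes held 17.7 FPKM, and all contigs of the listed clusters 105 FPKM. The 13 listed KCS unigenes summed to 121 ± 9.66 FPKM (SD, n = 3) at 30 DAF, then 54.2 ± 8.20 and 21.6 ± 5.07 at 60 and 90 DAF. Listed KCR over listed KCS was 3.28 ± 0.546 at 30 DAF, 14.8 ± 3.08 at 60 DAF and, below 1 in every library, 0.833 ± 0.144 at 90 DAF. Listed KCR over listed ECR was 5.92 to 9.82 in the 30 DAF libraries, 20.5 to 24.2 in those of 60 DAF and 0.224 to 0.330 in those of 90 DAF. KCR over HCD, with all contigs of the listed clusters in both sums, was 2.89 to 4.58 in the 30 DAF libraries, 8.11 to 11.5 in those of 60 DAF and 0.168 to 0.273 in those of 90 DAF. In each of these ratios the stages did not overlap, the 60 DAF libraries were the highest and the 90 DAF libraries the lowest.

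**Figure D3:**
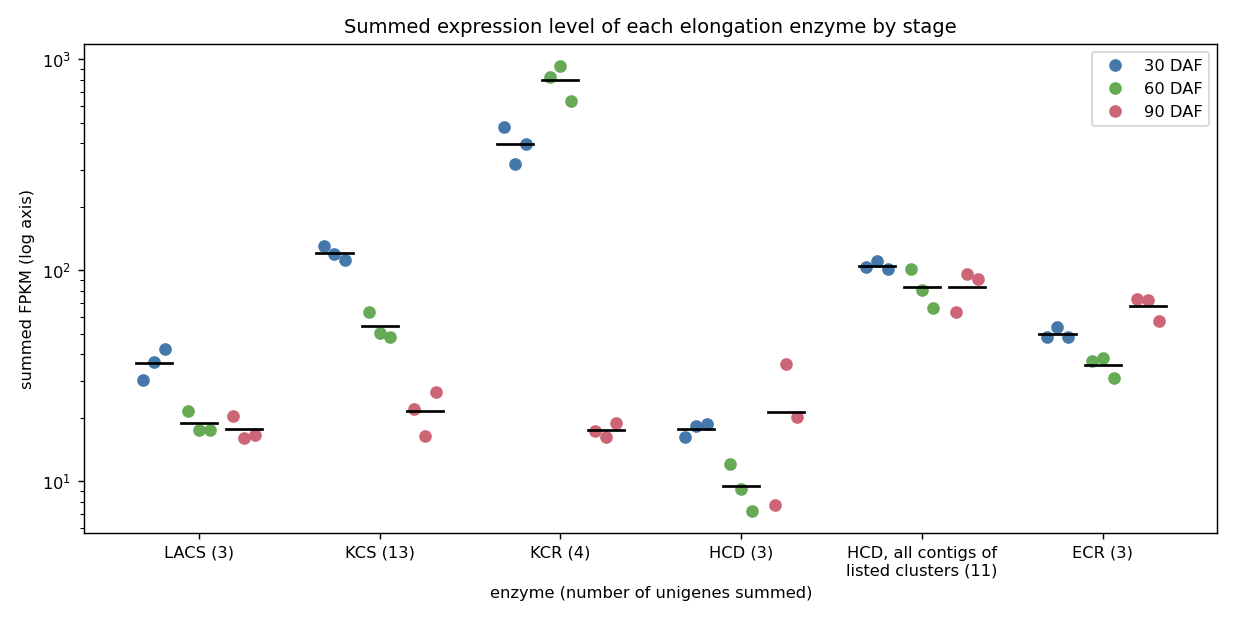
Summed FPKM on a log axis of the unigenes listed for each elongation enzyme at 30, 60 and 90 DAF, with long-chain acyl-CoA synthetase (LACS) before the cycle. HCD is also shown over all contigs of its listed clusters. Each point is a library and each bar the mean of 3. KCR falls from 796 to 17.5 FPKM between 60 and 90 DAF, while HCD over all contigs is 83.0 and 83.7 FPKM and ECR is 35.4 and 67.6 FPKM.

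Of the 4 contigs, 2 were DEGs in Group I, where 8.05% of all unigenes tested were, with 1 contig higher (1.72% of all) and 1 lower (6.33%). This count was 0 without 30 DAF replicate 2, without 60 DAF replicate 1, without 60 DAF replicate 2 and after quantile normalization, and 1 without 30 DAF replicate 1, 30 DAF replicate 3 or 60 DAF replicate 3, with 0.1 added in place of 0.5, without the filter on low values and under median-of-ratios scaling. All 4 were DEGs in Group II, where 27.6% of all were, with 2 higher (18.2%) and 2 lower (9.41%). All 4 were also DEGs in Group III, where 30.2% of all were, with 2 higher (13.7%) and 2 lower (16.5%). The libraries did not overlap between the stages compared in 2, 4 and 4 of the contigs, and in 35.7%, 47.4% and 48.1% of all unigenes tested. Of the 4 cluster sums, those of CL15103 and CL6818 were DEGs in Group I, those of CL15103 and CL3941 in Group II and all but that of CL6953 in Group III, where 10.3%, 32.2% and 33.3% of the 34193 clusters and single unigenes tested were DEGs. In Group I the change of the CL15103 sum was 1.01, and it was 0.86 without 30 DAF replicate 2, 0.98 without 60 DAF replicate 1 and 0.89 without 60 DAF replicate 2, below the 2-fold limit, as was that of the CL6818 sum, -0.97, under median-of-ratios scaling. Since the contigs had been chosen for such changes, nothing is read from these counts. The 3 comparisons share libraries.

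The other elongation unigenes listed by the study were mostly lower at 90 than at 30 DAF. The list held 22 unigenes (LACS, KCS and the other KCR, HCD and ECR unigenes), which the study had chosen on these libraries. The 7 listed phospholipase A2 unigenes, which the study's elongation total includes, were left out of it. Of the 22 unigenes, 20 passed the filter. In Group I 6 of the 20 were DEGs, all lower, where 8.05% of all unigenes were DEGs and 6.33% lower ones. In Group II 7 were DEGs, 1 higher and 6 lower, where 27.6% of all were DEGs and 9.41% lower ones. In Group III 17 were DEGs, 1 higher and 16 lower, where 30.2% of all were DEGs and 16.5% lower ones. The DEG that was higher in both was CL3941.Contig2_All of ECR. Their median log2 change was -0.94, -0.28 and -1.49, where the median over all unigenes tested was -0.31, 0.36 and 0.06. In Group I the count was 3 without 30 DAF replicate 2 and 10 without 60 DAF replicate 1. Without any 1 of the 30 DAF libraries only 16 of the 22 passed the filter, and 12 to 14 were DEGs in Group III. Some unigenes passed the filter through 30 DAF alone, so that a lower call was in part set by it. Among them was Unigene17156_All of KCR, with means of 0.230 and 0.0200 FPKM at 60 and 90 DAF.

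Among KCS, which is the condensing enzyme of the cycle, 5 of the 12 tested unigenes were lower DEGs in Group I (6.33% of all unigenes), 3 in Group II (9.41%) and 10 in Group III (16.5%). Without any 1 of the 30 DAF libraries the Group I count was 3, of 9 tested, and without 30 DAF replicate 1 the Group III count was 6. CL14705.Contig1_All, Unigene20808_All and Unigene1248_All averaged at most 0.127 FPKM at 60 and 90 DAF and passed the filter through 30 DAF alone. Lower calls for them were in part set by the filter. All were DEGs in Group III, and all but Unigene1248_All in Group I. CL14039.Contig2_All had the highest KCS level at 30 DAF, 54.97 ± 2.70 FPKM (SD, n = 3), with 25.3 ± 4.001 at 60 DAF and 0.957 ± 0.964 at 90 DAF. It had the lowest Group II and Group III change of the list, -4.32 and -5.44. In Group I its change was -1.12 (95% interval -1.97 to -0.26), which was not a DEG, where that of the KCR contig CL15103.Contig1_All was 1.02.

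**Figure D4:**
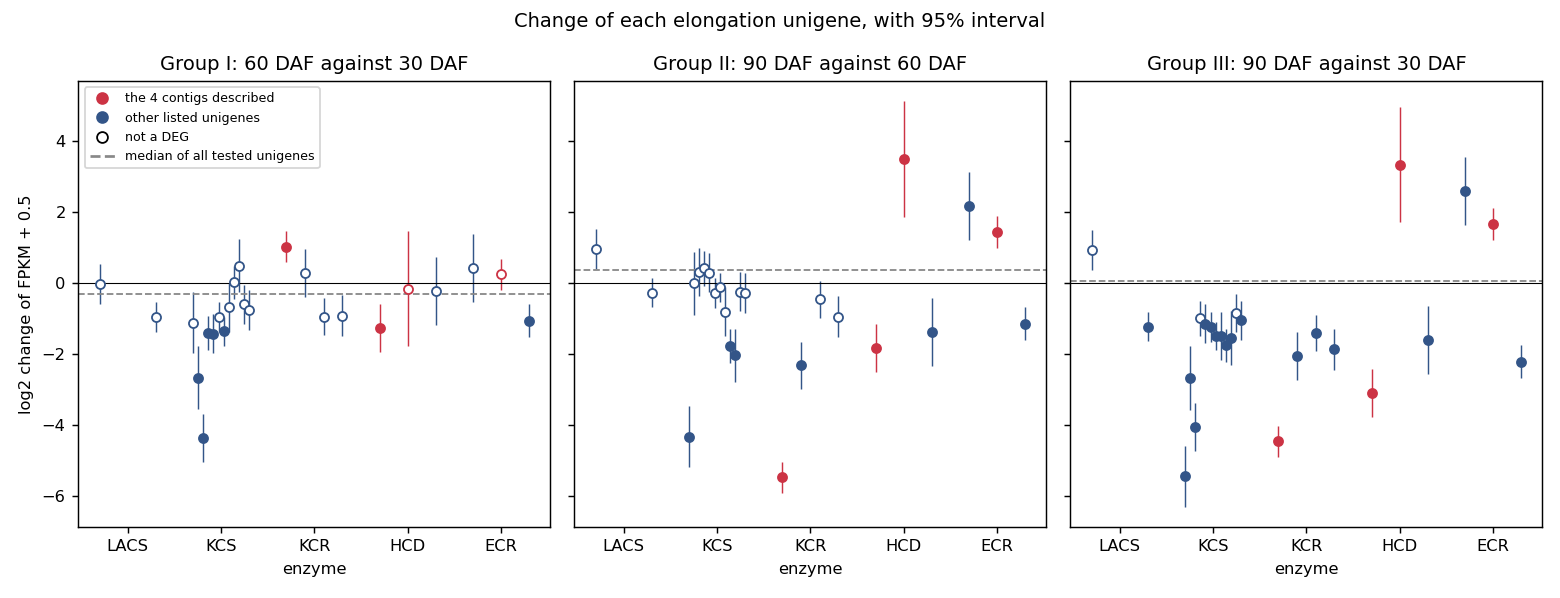
Log2 change of FPKM + 0.5, with its 95% interval, for each tested unigene listed under LACS, KCS, KCR, HCD and ECR in Groups I, II and III; red marks the 4 contigs described, filled points are DEGs and the dashed line is the median of all unigenes tested. The red points span -5.48 to 3.49 in Group II, and in Group III the points above 0 are the HCD contig CL6953.Contig3, both contigs of the ECR cluster CL3941 and 1 LACS unigene that was not a DEG.

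The plastid runs the matching reduction and dehydration steps on acyl carrier protein, with 3-oxoacyl-ACP reductase (KAR), hydroxyacyl-ACP dehydratase (HAD) and enoyl-ACP reductase (EAR). The 8 listed KAR unigenes summed to 185 ± 16.4 FPKM at 30 DAF, then 487 ± 272 and 1296 ± 259 at 60 and 90 DAF (SD, n = 3). Within this sum CL2376.Contig2_All rose from 2.03 ± 2.06 to 113 ± 35.7 and 1071 ± 540 FPKM, while Unigene20183_All fell from 174 ± 15.4 to 80.7 ± 12.5 and 46.1 ± 7.44 FPKM. The other listed contigs of CL2376 varied widely between libraries. At 60 and 90 DAF CL2376.Contig1_All had 147 ± 71.2 and 167 ± 286 FPKM, and CL2376.Contig3_All 144 ± 246 and 0.167 ± 0.289 FPKM. Whether reads were divided between these contigs was not tested. In Group III 4 of the 8 were higher DEGs (13.7% of all unigenes) and 2 lower ones (16.5%). CL7002.Contig7_All, 1 of the higher ones, passed the filter through 90 DAF alone. At 90 DAF the KAR sum was above the KCR sum in every library, whereas at 30 DAF the KCR sum, 397 ± 78.7 FPKM, was the higher one. The HAD sum was 76.2 ± 8.74, 18.4 ± 0.712 and 14.9 ± 2.25 FPKM, and the EAR sum was 99.6 ± 6.51, 12.8 ± 3.09 and 1.18 ± 0.895 FPKM. At 90 DAF the listed ECR unigenes, for the matching last step of elongation, stood at 67.6 ± 8.96 FPKM. Of these 15 plastid unigenes, also chosen by the study on these libraries, 9 were DEGs in Group I (1 higher, 8 lower), 8 in Group II (4 higher, 4 lower) and 13 in Group III (4 higher, 9 lower), where 8.05%, 27.6% and 30.2% of all unigenes were DEGs. Their median log2 change was -1.11, -0.80 and -1.65.

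For each contig the unigenes outside its cluster with the most similar pattern were sought by Pearson's r of log2(FPKM + 0.5) over the 9 libraries, which fall into 3 stages, so that a shared stage difference alone gives a high r. For CL15103.Contig1_All they were Unigene4576_All, CL12523.Contig2_All and Unigene41100_All, with r of 0.999, 0.999 and 0.998 among 33215 unigenes. Each was above 3 FPKM on average at 30 and 60 DAF and at most 0.05 FPKM at 90 DAF, lower than the KCR contig ever was. Annotated unigenes were taken only from the study's list of lipid-metabolism DEGs of these same libraries, 388 of them for this contig. A difference between stages was thus a condition of that list. The nearest among them were the beta-galactosidase contigs CL4644.Contig1_All (r = 0.997) and CL4644.Contig2_All (r = 0.996). Next came Unigene41108_All (r = 0.995), annotated as farnesyl-diphosphate farnesyltransferase, which starts sterol synthesis. Unigene41108_All had 59.5, 104 and 0.0533 FPKM on average at 30, 60 and 90 DAF.

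For CL6818.Contig4_All the nearest were CL5762.Contig1_All (r = 0.997), CL14578.Contig2_All (0.996) and CL680.Contig3_All (0.995). Among annotated unigenes they were the alcohol dehydrogenase CL585.Contig7_All (r = 0.993) and the aldehyde dehydrogenases CL476.Contig2_All (0.993) and CL476.Contig3_All (0.991). CL585.Contig7_All had 245, 30.7 and 2.08 FPKM on average at the 3 stages, a steeper drop than that of the HCD contig. For CL6953.Contig3_All the nearest were Unigene43691_All (r = 0.991), CL11585.Contig3_All (0.986) and CL9915.Contig1_All (0.982). Among annotated unigenes they were the choline kinase CL1012.Contig3_All (r = 0.944), the sphinganine hydroxylase Unigene16750_All (0.939), which acts on the sphingoid base of sphingolipids, and the aldehyde dehydrogenase CL7300.Contig2_All (0.930). Unigene16750_All had 31.1, 32.9 and 121 FPKM on average.

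For CL3941.Contig3_All the nearest were Unigene30088_All (r = 0.992), Unigene13511_All (0.990) and CL624.Contig5_All (0.989). CL624.Contig5_All had 3.04, 3.22 and 61.4 FPKM on average at 30, 60 and 90 DAF. Among annotated unigenes they were the acylglycerol lipase Unigene7042_All (r = 0.966), the dihydroceramidase CL2966.Contig1_All (0.965) and the cytochrome P450 unigene Unigene45448_All (0.963). None of the unigenes named for the 4 contigs was listed as an elongation enzyme. Few such unigenes were among those searched, and each contig's own cluster was left out, so nothing is read from this.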

How the data were processed

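RNA of 9 seed samples was sequenced on an Illumina platform. The authors assembled the reads with Trinity, clustered the transcripts with Tgicl, mapped reads to these with Bowtie2, used RSEM for quantification, and deposited FPKM per unigene. Tool versions: not given in the sources used here. Samples were grouped by the labelled days after flowering. The deposited table had 9 lines that named no unigene, which were left out. FPKM are not counts, so limma 3.58.1 (R 4.3.3) took the place of the DESeq2 test of the study: log2(FPKM + 0.5), a filter that kept the 55192 unigenes reaching 0.5 FPKM in 3 or more libraries, 1 term per stage, all 9 libraries, empirical Bayes with a variance trend, and Benjamini-Hochberg adjustment over all tested unigenes. A DEG had an absolute log2 change of at least 1 and an adjusted p of at most 0.05. The fit was tested on simulated data. Cluster sums were fitted the same way, after adding the FPKM of all contigs of a cluster. Adding 0.5 understates the change of low unigenes. Named unigenes were the 4 contigs, the other contigs of their clusters, the other listed KCR, HCD and ECR unigenes, the 3 most alike unigenes and 3 most alike annotated ones per contig, and the extremes of other lists. Listed unigenes that passed the filter through 1 stage alone were named as well. The members and lists were chosen with earlier results of these data known. As alternatives, 0.1 or 1 was added in place of 0.5, the filter was dropped or raised to 1 FPKM, and the other settings were median-of-ratios scaling, quantile normalization, a replicate block, each library left out, and for sums all contigs of the listed clusters. Read depth is not in the deposited table. The relative depth is the inverse of the most frequent ratio of a library's low values to those of 30 DAF replicate 1.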

Additional observations from a re-analysis of the deposited data

How the results depend on the processing

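As a description of contigs chosen for such changes, the 4 stayed past the DEG limits in Groups II and III under every alternative fit, except that the Group II change of CL3941.Contig3_All was 0.81 under median-of-ratios scaling. In Group I, CL15103.Contig1_All was at 0.79 after quantile normalization and 0.86 to 1.17 with 1 library left out. CL6818.Contig4_All was at -1.34 with 0.1 added, -1.27 without the filter, -0.88 under median-of-ratios scaling and -0.92 after quantile normalization, no DEG in these 4, and at -1.36 to -1.21 with 1 library left out, where leaving out any library of 30 or 60 DAF ended the call. CL6953.Contig3_All, no DEG in Group I, was at 0.081 under median-of-ratios scaling, 0.095 after quantile normalization and -0.55 to 0.082 with 1 library left out, the highest without 60 DAF replicate 3.

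Of the cluster sums, that of CL6953 in Group II turned to -0.48 under median-of-ratios scaling and -0.28 after quantile normalization, and ranged from -0.048 to 0.40 with 1 library left out; in Group I that range was -0.10 to 0.30. The sum of CL15103 in Group I ranged from 0.86 to 1.17 with 1 library left out. The sum of CL6818 was -0.97 in Group I and -1.08 in Group II under median-of-ratios scaling, and that of CL3941 in Group II was 0.998, just under the limit.

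With 1 library left out, DEGs over all unigenes numbered 2327 to 4919 in Group I, fewest without 30 DAF replicate 2 and also 2788 and 2433 without the other 30 DAF libraries, 13436 to 14960 in Group II and 14031 to 16360 in Group III. The 22 other elongation unigenes gave 3 to 10 DEGs in Group I, 6 to 9 in Group II and 12 to 18 in Group III, and the 15 plastid unigenes 8 to 10, 7 to 8 and 11 to 13. The split of all DEGs depends on scaling: in Group II 10034 were higher and 5196 lower as deposited, and 4139 higher and 7809 lower under median-of-ratios scaling.

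Libraries with the same replicate number did not deviate together (correlations of -0.16 to 0.13). With the replicate block 3502, 14497 and 16024 unigenes were DEGs in Groups I, II and III, against 4443, 15230 and 16677, and no call of the 4 contigs changed.

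Of the alternatives to the stage means of the summed KCR, HCD and ECR levels, leave-one-out aside, 18 lay within 1 SD of the mean and 9 did not, 6 of these under median-of-ratios scaling and 3 with all contigs of HCD. Shares within a cluster stayed within 1 SD in all 12 cases when taken from FPKM summed over the libraries of a stage. With 3 libraries per stage and levels under 2 FPKM, as for CL6953.Contig3_All before 90 DAF, the precision is low. The study's totals of clean reads differed little from library to library, and they were not used here. The number of reads behind each FPKM value is unknown.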
